A study of Tachysurus vachellii and Tachysurus fulvidraco x Tachysurus vachelli and Tachysurus fulvidraco with 9 samples.

Results

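The liver transcriptome of the hybrid yellow catfish Huangyou-1 was compared with the mid-parent, the level halfway between its parental species, gene symbol by gene symbol. Huangyou-1 is the cross of a female *P. fulvidraco* with a male *P. vachelli*, and its liver RNA was sequenced beside that of both parental species. The deposited table held 57710 transcript rows, of which 17769 carried a gene symbol. Rows of 1 symbol were summed without regard to case, which gave 11137 symbols. Of these, 10815 reached 1 TPM or more (the share of transcripts, scaled to a fixed library total) in at least 3 of 9 libraries and were compared. All fish were juveniles, bred by artificial fertilization after hormone injection of the parents, and the lines were kept in separate aquaria, so rearing and line cannot be told apart. There were 3 libraries of the hybrid, 3 of *P. vachelli* and 3 of *P. fulvidraco*, numbered 1 to 3 in each group. Whether 1 fish or a pool went into a library is not stated in the labels, so the p-values measure the spread between these libraries, which may in part be technical. No sex is given.

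A hybrid that simply added up the activity of the 2 parental genomes would sit near the mid-parent for most genes. A level above the higher or below the lower parent is called transgressive, and a level like that of 1 parent is called dominant. Growth vigour of hybrids, heterosis, is often studied by sorting genes this way. The liver is the main source of plasma proteins, so it folds and exports much protein through the endoplasmic reticulum, and it also controls blood sugar, lipids, bile and amino acid breakdown.

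Values are TPM, which are relative to the whole library and to transcript length. The difference is the log2 of mean hybrid TPM plus 1 minus the log2 of the mid-parent TPM plus 1, where the mid-parent is the mean of both parental group means on the linear scale. Each difference is given with its standard error (SE) and a p-value from limma's moderated test, adjusted by Benjamini and Hochberg over all 10815 symbols, with a threshold of 0.05. Symbols past it are called above or below the mid-parent. A call is termed stable here when it held in the same direction under 4 other scalings of the libraries and with each of the 9 libraries left out in turn. Sequencing depth is unknown, since the table holds no counts.

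Symbols held 57.4% to 58.0% of all TPM in hybrid libraries, 55.9% to 56.3% in *P. vachelli* and 59.2% to 59.8% in *P. fulvidraco*. The rank correlation over symbols was 0.937 to 0.947 between hybrid libraries, 0.875 to 0.897 between hybrid and *P. fulvidraco*, 0.869 to 0.879 between hybrid and *P. vachelli*, and 0.782 to 0.8 between the parents. These correlations run across symbols, which are not independent replicates. The hybrid libraries differed in scale, with median-ratio size factors of 0.923, 0.958 and 1.073 in hybrid 1, 2 and 3. These factors were 0.998 to 1.041 in *P. vachelli* and 1.015 to 1.039 in *P. fulvidraco*. Hybrid 1 and hybrid 2 thus lay under every parental library, and hybrid 3 above every one. *P. fulvidraco* libraries 1 and 2 held 5.08% and 1.88% of their TPM in vitellogenin rows, the egg yolk precursor made by the liver under estrogen, against 0.0055% in library 3. In the 6 hybrid and *P. vachelli* libraries that share was at most 0.000827%. The liver label was checked against 18 hepatocyte markers, of which 15 were measured. Their summed level was 60500 to 66400 TPM in hybrid libraries, 39300 to 44500 TPM in *P. vachelli* and 50600 to 55700 TPM in *P. fulvidraco*. Much of it came from hpx, with means of 24026, 4638 and 12628 TPM, and tf, with 10850, 5515 and 8144 TPM, in that order. The markers went both ways, with 4 called above and 4 below the mid-parent (26.7% each). Over all symbols these shares were 2.42% and 7.91%.

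Most symbols lay close to the mid-parent. The median difference was -0.07 with quartiles of -0.27 and 0.12, and 84.9% of symbols were within 0.5 and 97.4% within 1 of the mid-parent on the log2 scale. The test called 1118 symbols, 10.3% of those tested. Of these, 262 were above the mid-parent (2.42% of symbols) and 856 below it (7.91%). The median difference was 0.74 among the calls above and -0.59 among the calls below. A difference of at least 1 was reached by 78 calls above and 123 below.

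The share of calls that were above the mid-parent was 23.4%. It was 34.0% after median-ratio scaling, which divides each library by the median of its symbols' ratios to a common reference, and 42.7% when the mid-parent was taken as the mean of log values. A mean of log values lies lower than the linear mean wherever the parents differ. Counts of calls also moved with single libraries. Without hybrid 1 or hybrid 2, 160 and 101 symbols were above and 303 and 247 below. Without *P. vachelli* 1, *P. vachelli* 3 or *P. fulvidraco* 2, 173, 133 and 152 were above and 525, 412 and 510 below. Without *P. fulvidraco* 1 and 2 together, 143 were above and 414 below. Without hybrid 3 the counts were 168 and 907, and the median difference of all symbols was -0.14. Stable calls numbered 75 above and 196 below.

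**Figure D1:**
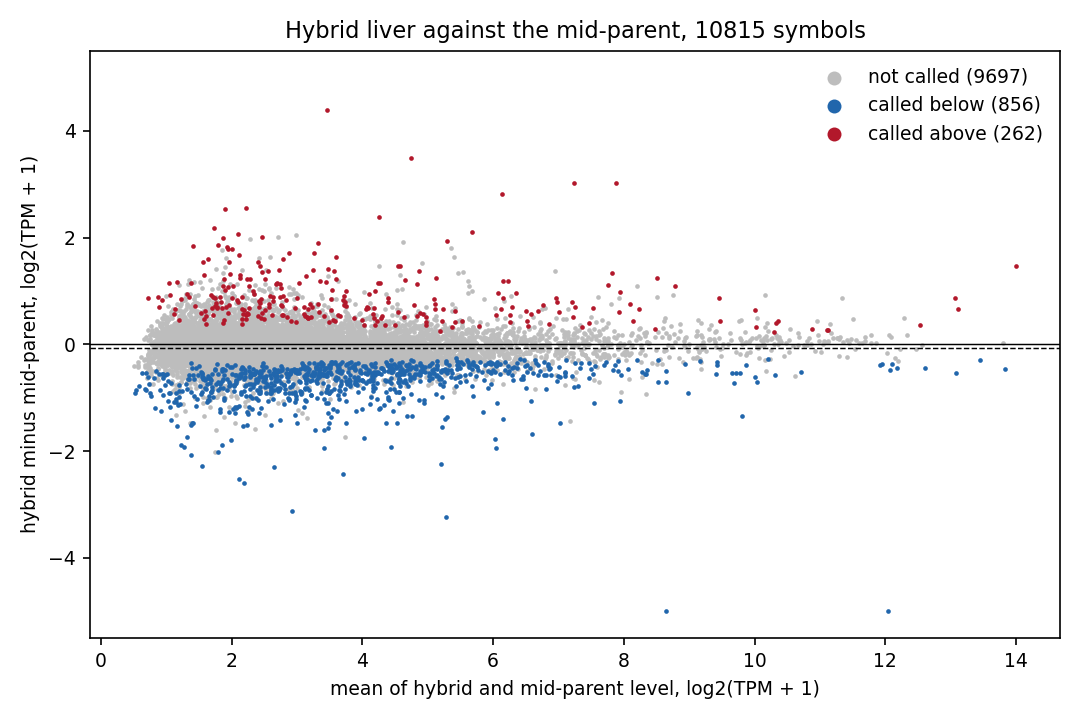
Each point is 1 of 10815 symbols, with the mean of hybrid and mid-parent level on the x axis and the hybrid minus mid-parent difference on the y axis, both as log2(TPM + 1). The 262 red points are called above and the 856 blue points below; the dashed line is the median of -0.07, and values beyond 5 are drawn at 5.

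Calls below the mid-parent were less frequent at the lowest levels. They made up 5.4% of symbols with a mean of 1 to 10 TPM, 12.3% of those at 10 to 100 TPM, 15.9% of those from 100 TPM up to the next power of 10, and 13.4% of the 119 symbols beyond it. Calls above rose with level too, at 2.08%, 2.44%, 5.83% and 9.24% in the same order. Among the 119 most abundant symbols, 11 were called above and 16 below. The median SE fell from 0.16 to 0.12 and 0.1 over the lower 3 of these levels. Symbols called above took 7.52% to 8.34% of TPM in hybrid libraries, 3.77% to 4.07% in *P. vachelli* and 4.6% to 5.61% in *P. fulvidraco*. Symbols called below took 8.2% to 8.42%, 13.3% to 14.0% and 9.87% to 13.5%. Both sets were picked by their difference in these same libraries, so the direction of these shares follows from the choice and tests nothing. The most abundant symbols weigh most in such sums. Among calls above, hpx averaged 24026 TPM in the hybrid. Among calls below, vtg1 varied within *P. fulvidraco*, from 35.2 TPM (library 3) to 36981 TPM (library 1).

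Calls were set against the range of the parents. Of the 262 symbols above the mid-parent, 233 had a hybrid mean above both parental means, and 29 lay between them. Of the 856 below, 609 had a mean below both and 247 lay between. Over all symbols 18.1% of hybrid means were above both parents, 26.6% below both and 55.3% between. When the hybrid was tested against each parent, 105 symbols were above both (0.971%) and 217 below both (2.01%). Both tests use the same hybrid libraries. Without hybrid 2 the numbers were 70 and 96, without *P. vachelli* 3 they were 66 and 111, and without *P. fulvidraco* 2 they were 69 and 125. Without hybrid 1 or *P. vachelli* 1, 110 and 122 symbols were below both. Every hybrid library exceeded every parental library for 236 symbols (2.18%) and lay under every one for 584 (5.4%). Of the calls, 162 above and 391 below had no overlap of this kind.

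Where the parents differed, the hybrid did not sit at the same place for both species. The parents differed for 5251 symbols (48.6%), and these included 1090 that were at least 2-fold higher in *P. vachelli* and 1097 at least 2-fold higher in *P. fulvidraco*. Folds between the parents were taken with 1 TPM added to each mean. For the first set the median hybrid level was 36.6% of the way from the lower to the higher parent on the linear scale. In that set 31 symbols were called above the mid-parent (2.84%) and 190 below (17.4%). For the second set the median was 47.9%, with 52 above (4.74%) and 83 below (7.57%). Over all symbols 2.42% were above and 7.91% below, so the share below in the second set was near the background. At a 4-fold difference or more the medians were 34.3% over 245 symbols and 49.7% over 268. The sets were picked from the same libraries, so these positions are a description with no test.

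**Figure D2:**
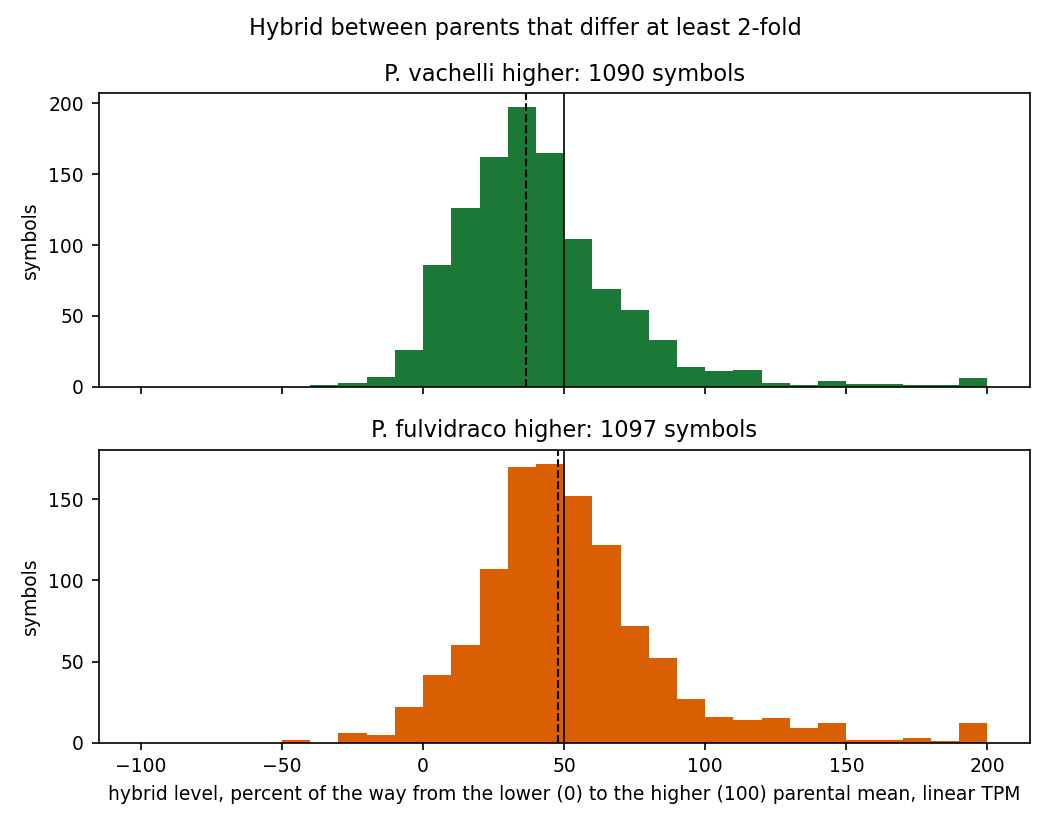
Histograms of the hybrid level as a percentage of the distance from the lower (0) to the higher (100) parental mean in linear TPM, for 1090 symbols higher in P. vachelli and 1097 higher in P. fulvidraco by at least 2-fold. The fold was taken with 1 TPM added to each parental mean. The solid line marks 50, the mid-parent; the dashed medians are 36.6 and 47.9, and values off the axis are drawn at its edge.

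The largest gains over the mid-parent included enzymes of taurine synthesis. Csad, cysteine sulfinic acid decarboxylase, makes hypotaurine, the precursor of taurine. Its levels were 277, 507 and 476 TPM in hybrid libraries, 62.8, 44.4 and 67.9 TPM in *P. vachelli* and 35.4, 59.4 and 34.8 TPM in *P. fulvidraco*. No hybrid library overlapped a parental one, and the difference was 3.02 ± 0.25 (limma adjusted p = 0.00116). GADL1, whose row is also described as a cysteine sulfinic acid decarboxylase, rose in the same libraries to 92.8, 131 and 144 TPM against 11.3 to 20.4 TPM in *P. vachelli* and 12.9 to 22.0 TPM in *P. fulvidraco*. Near-identical transcripts of both symbols could share reads, so they are not separate evidence.

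Other metabolic enzymes were called above with a stable result. SDSL, a serine dehydratase-like enzyme, stood at 12.3 to 15 TPM in hybrid libraries against 3.34 to 4.99 and 5.59 to 7.47 TPM in *P. vachelli* and *P. fulvidraco* (difference 1.18 ± 0.14, limma adjusted p = 0.00287). Fmo5, a flavin-containing monooxygenase, stood at 41.5 to 47.7 TPM against 28.3 to 33.3 and 24.7 to 27.1 TPM (0.66 ± 0.08, limma adjusted p = 0.00344). Neither overlapped with a parent.

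Among abundant transcripts the clearest gain was in hpx, the hemopexin-like plasma protein that fish biologists call WAP65, for warm temperature acclimation protein. It stood at 23018, 26580 and 22479 TPM in hybrid libraries, 4094, 5697 and 4125 TPM in *P. vachelli* and 10276, 12035 and 15574 TPM in *P. fulvidraco*. All groups were separate, with the hybrid highest and *P. vachelli* lowest, and the hybrid was above the mid-parent by 1.48 ± 0.16 (limma adjusted p = 0.00251). The iron carrier tf, transferrin, followed the same order at 9873 to 12260 TPM in hybrid libraries, 7807 to 8493 TPM in *P. fulvidraco* and 5035 to 6128 TPM in *P. vachelli*. Its difference was 0.67 ± 0.09 (limma adjusted p = 0.00401).

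Membrane transport rose for slc51a, a subunit of the basolateral bile acid and steroid exporter, with 295, 303 and 284 TPM in hybrid libraries against 143 to 161 TPM in *P. vachelli* and 91.1 to 156 TPM in *P. fulvidraco*. Its difference was 1.10 ± 0.14 (limma adjusted p = 0.00364). ABCC1, a drug and conjugate exporter summed here over 7 rows, stood at 354, 259 and 359 TPM against 129 to 149 and 170 to 200 TPM, with a difference of 0.98 ± 0.12 (limma adjusted p = 0.00287). For both symbols the hybrid libraries were above all parental ones.

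For 3 other abundant symbols called above the mid-parent, the hybrid overlapped its higher parent. Tmprss9, whose rows are described as a complement C1r-like protease, had 1429 to 1493 TPM in hybrid libraries, 1464 to 1657 TPM in *P. vachelli* and 659 to 713 TPM in *P. fulvidraco*. For elovl5, a fatty acid elongase, hybrid libraries held 316 to 451 TPM, *P. vachelli* 347 to 379 TPM and *P. fulvidraco* 88.9 to 105 TPM. CYP2J2, a cytochrome P450 that oxidizes fatty acids, was at 1146 to 1352 TPM in hybrid libraries, 1078 to 1262 TPM in *P. fulvidraco* and 371 to 430 TPM in *P. vachelli*. The hybrid overlapped *P. vachelli* for the first pair and *P. fulvidraco* for CYP2J2. Differences from the mid-parent were 0.40, 0.66 and 0.64.

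Immune symbols were also among the largest gains. H2-Q7 and H2-Q8, both described as MHC class I alpha chains, which present peptides to T cells, stood at 20.3 to 86.0 TPM and 22.4 to 37.5 TPM in hybrid libraries. Neither exceeded 8.85 TPM in any parental library, and the differences were 3.50 ± 0.53 and 2.39 ± 0.24 (limma adjusted p = 0.0064 and 0.00231). MHC class I genes are highly polymorphic, and how reads of other alleles were assigned was not tested. The antigen presentation list, which does not hold these symbols, had 1 of 14 members above and 1 below (7.14% each). Over all symbols these shares were 2.42% and 7.91%, and the list's stable call was the 1 below. CCL4, described as a CC chemokine, stood at 13.4 to 16.9 TPM against at most 5.22 TPM in either parent (1.90 ± 0.31, limma adjusted p = 0.00925). mx, an interferon-induced antiviral GTPase, stood at 6.08, 7.37 and 7.16 TPM against 0.32 to 1.29 and 1.24 to 3.87 TPM (1.54 ± 0.26, limma adjusted p = 0.0105).

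Of the remaining leading symbols, Ccl24, a row described only as an uncharacterized protein, stood at 53.5 to 116 TPM in hybrid libraries and at most 29.4 TPM in a parent. GTSF1, described as gametocyte-specific factor 1-like, stood at 8.49 to 20.6 TPM against 4.93 to 6.75 TPM in *P. vachelli* and 0.68 to 1.71 TPM in *P. fulvidraco*. tnni3, a row described as a slow skeletal muscle troponin I, stood at 9.64, 11.3 and 30.9 TPM in hybrid libraries against 3.01 to 3.92 and 4.97 to 8.92 TPM. All 3 were above both parents in every library. The muscle marker list had 0 of 6 measured members called. The row named paxA, which has no informative description, had 8.54, 40.2 and 11 TPM in hybrid libraries. In the parents it was listed at 0 or 0.01 TPM, so no fold is given.

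**Figure D3:**
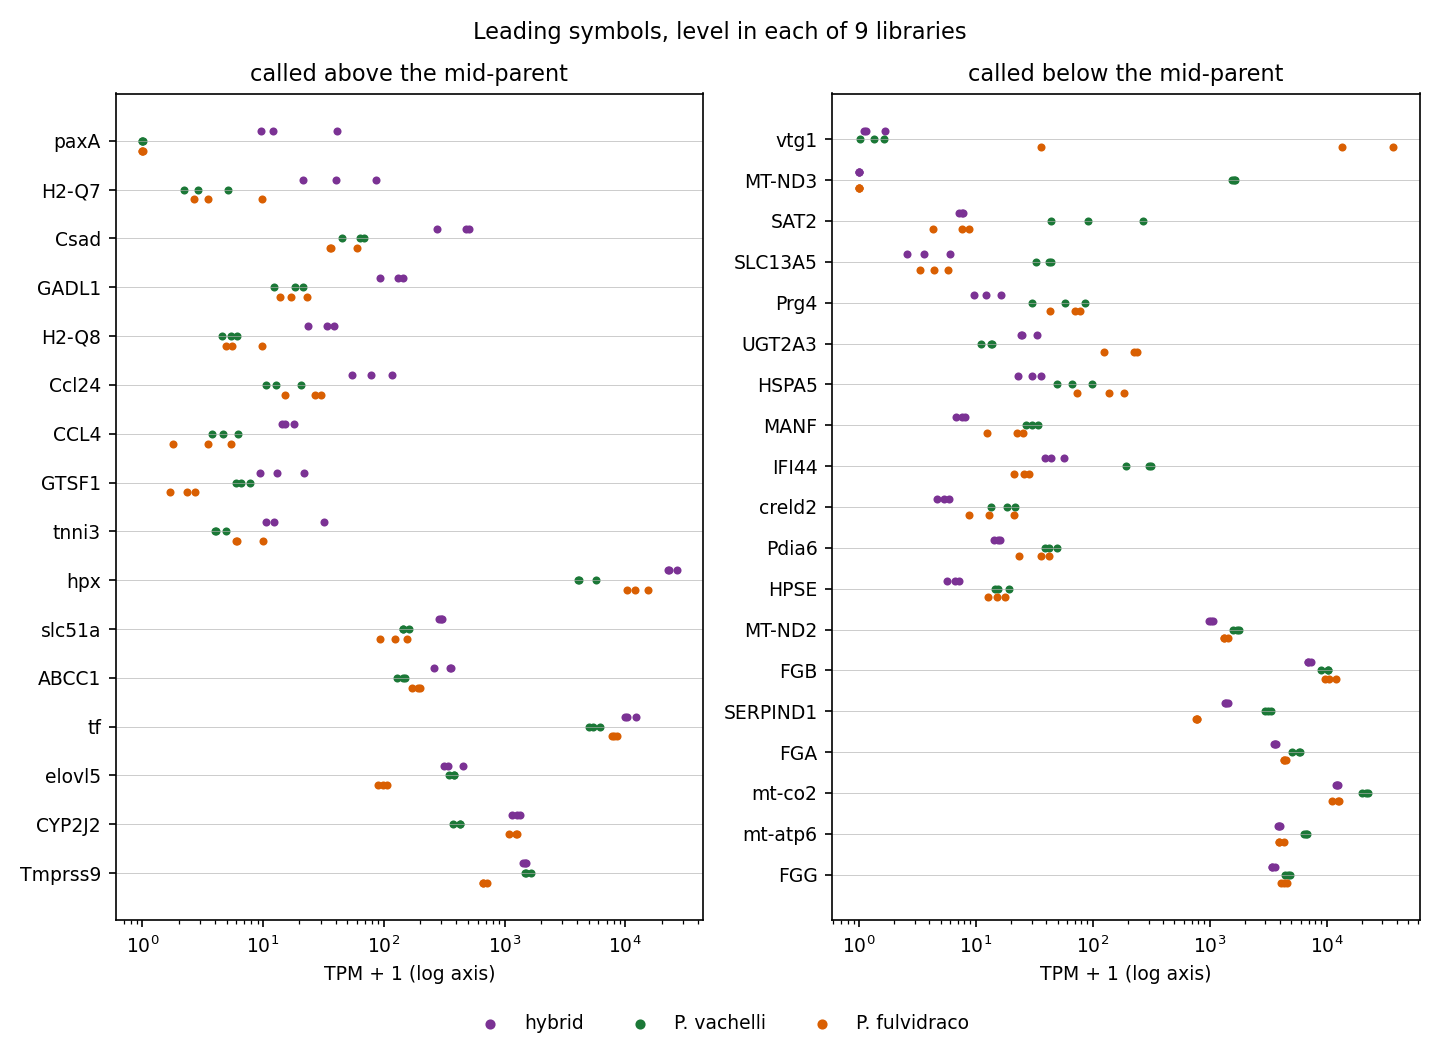
TPM plus 1 on a log axis in each of 9 libraries for 16 leading symbols above (left) and 19 below the mid-parent (right), with 3 points per group in purple (hybrid), green (P. vachelli) and orange (P. fulvidraco). For Csad the hybrid points lie at 277 to 507 TPM, above all parental points; for HSPA5 they lie at 21.9 to 34.8 TPM, below all of them.

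Below the mid-parent, the list of endoplasmic reticulum chaperones and stress genes stood out by count. These proteins fold and export secretory proteins, and many are induced together by the unfolded protein response. Of 55 measured members 29 were called below and 0 above, 52.7% against the 7.91% of all symbols, and the list's median difference was -0.40 against -0.07 for all symbols. In all, 50 members were lower and 5 higher than the mid-parent, 16 were below both parents by test (2.01% of all symbols were), and 26 had every hybrid library under every parental one (5.4% of all symbols). The stable calls numbered 12. This list, like the others, was written with earlier results of these data known, so its count is a description with no test. Bulk liver cannot tell fewer cells of a type from less RNA per cell, here or in the results that follow.

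The chaperone HSPA5, known as BiP and the central sensor-binding chaperone of the compartment, stood at 21.9, 34.8 and 29.0 TPM in hybrid libraries, 48.1, 96.8 and 65.8 TPM in *P. vachelli* and 184, 137 and 72.5 TPM in *P. fulvidraco*. All hybrid libraries were lower than all parental ones, and the difference was -1.78 ± 0.31 (limma adjusted p = 0.0114). Within *P. fulvidraco* the level was highest in libraries 1 and 2, which also held the vitellogenin RNA. HSP90B1, the paralogous HSP90 of the compartment, had 36.7, 38.9 and 38.6 TPM in hybrid libraries, 94.2, 150 and 113 TPM in *P. vachelli* and 115, 84.0 and 53.6 TPM in *P. fulvidraco*. It differed by -1.39 ± 0.22 (limma adjusted p = 0.0083), with no overlap.

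MANF, a secreted stress-induced factor that binds BiP, stood at 5.76 to 7.03 TPM against 26.0 to 32.9 and 11.4 to 24.3 TPM (-1.75 ± 0.21, limma adjusted p = 0.00287). creld2, another stress-induced protein, stood at 3.65 to 4.84 TPM against 12.5 to 20.8 and 7.68 to 20.1 TPM (-1.60 ± 0.26, limma adjusted p = 0.00883). Both were lower in every hybrid library than in any parental library. The oxidoreductases Pdia6 and P4HB, which form disulfide bonds in new proteins, differed by -1.35 ± 0.17 and -0.77 ± 0.09 (limma adjusted p = 0.0036 and 0.00287). P4HB, the more abundant, stood at 116, 123 and 108 TPM against 198 to 218 TPM in *P. vachelli* and 164 to 213 TPM in *P. fulvidraco*. MANF, creld2, Pdia6 and P4HB, like HSPA5 and HSP90B1, stood higher in *P. fulvidraco* libraries 1 and 2 than in library 3.

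Several co-chaperones and disposal factors were also called below. Dnajb11 and Dnajb9, J proteins that work with BiP, differed by -1.10 and -1.04, and DERL1, a channel subunit for returning misfolded proteins to the cytosol, by -1.02 ± 0.12 (limma adjusted p = 0.00287). HERPUD1, part of the same disposal machinery, differed by -0.65 ± 0.09. CREB3L3, a membrane-bound transcription factor of liver released by proteolysis, stood at 13.7, 11.8 and 13.5 TPM in hybrid libraries, 36.0, 33.8 and 40.0 TPM in *P. vachelli* and 19.0, 18.5 and 14.3 TPM in *P. fulvidraco* (-1.0 ± 0.11, limma adjusted p = 0.0027). ATF6, a sensor of the stress response, was called below and overlapped *P. vachelli*, with 6.78 to 8.13 TPM against 7.07 to 7.50 TPM there and 14.4 to 15.3 TPM in *P. fulvidraco*.

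Not every member was lower. SIL1, a nucleotide exchange factor of BiP, had 9.01 to 9.95 TPM in hybrid libraries, between 3.17 to 3.71 and 11.3 to 12 TPM in the parents (0.28 ± 0.09, limma adjusted p = 0.0864). The lectin chaperones CALR and CANX differed by -0.34 ± 0.11 and -0.32 ± 0.14 and were not called (limma adjusted p = 0.0937 and 0.19). The sensor ERN1, summed over 7 rows, differed by -0.16 ± 0.15 (limma adjusted p = 0.552).

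How much of the list was called depended on the libraries used. Without *P. fulvidraco* 1 and 2, 17 members were called below with a median of -0.35, and HSPA5 then differed by -1.29 (limma adjusted p = 0.046). Without hybrid 1 or hybrid 2 the count was 16 and 12, and without *P. vachelli* 3 or *P. fulvidraco* 2 it was 19 each. Over all 10815 symbols, calls below also fell in these fits, from 856 to 303, 247, 412 and 510 in the same order. These totals apply as well to the list counts that follow. The list's count was 22 after median-ratio scaling and 24 after quantile normalization, where 676 and 873 of all symbols were below. The list's summed level was 4090 to 4210 TPM in hybrid libraries, 4880 to 5420 TPM in *P. vachelli* and 5080 to 6290 TPM in *P. fulvidraco*, with no overlap between the hybrid and a parent.

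**Figure D4:**
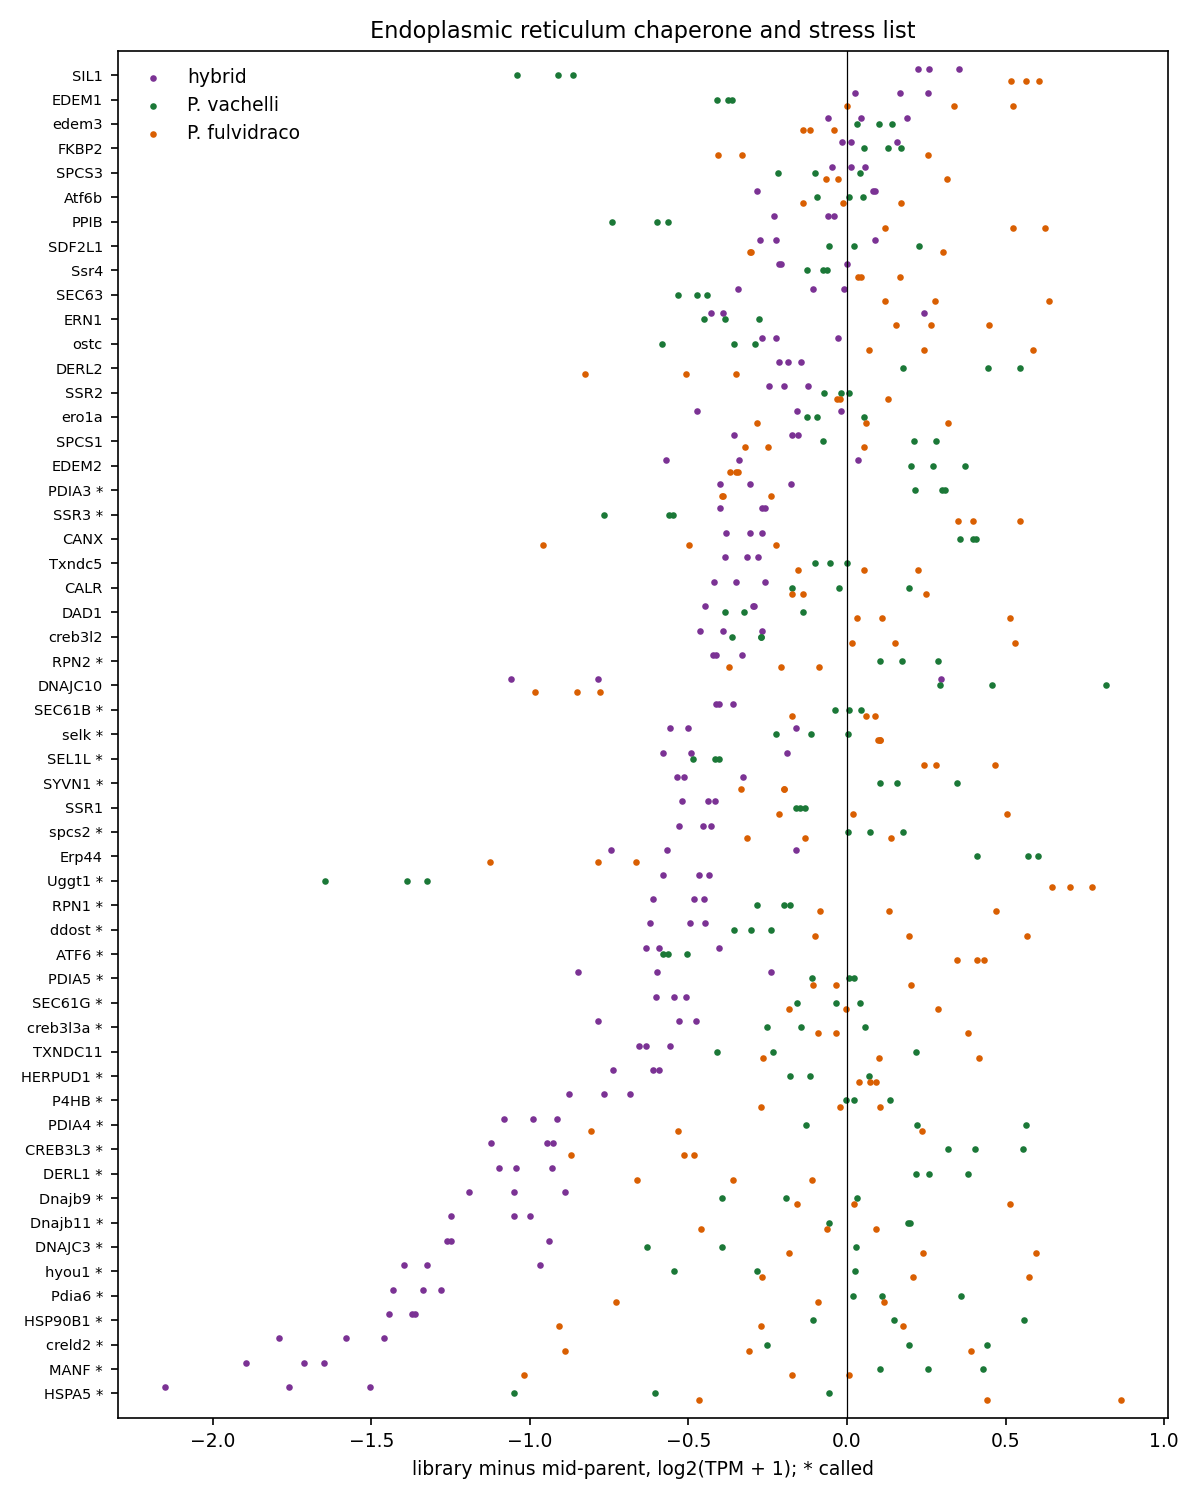
All 55 measured members of the endoplasmic reticulum list, ordered by their difference, with each of 9 libraries drawn as log2(TPM + 1) minus the mid-parent. The vertical line is the mid-parent and a star marks a call; the hybrid points (purple) of HSPA5, MANF and creld2 lie furthest to the left, and SIL1 stands at the top.

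Cytosolic chaperones had 12 of 35 measured members called below (34.3%, against 7.91% of all symbols) and 0 above, with a median of -0.32. AHSA1, the activator of the HSP90 ATPase, stood at 1.98, 2.65 and 3.33 TPM against 10.6 to 13.6 TPM in *P. vachelli* and 3.85 to 7.10 TPM in *P. fulvidraco*, lower in every hybrid library (-1.42 ± 0.19, limma adjusted p = 0.00386). DNAJA2, a J protein partner of HSP70, and PTGES3, an HSP90 co-chaperone, differed by -0.54 ± 0.07 and -0.50 ± 0.08 (limma adjusted p = 0.0045 and 0.0105). These 3 were the stable calls. The abundant HSP90 of the cytosol, hsp90ab1, held 363 to 430 TPM in hybrid libraries, 343 to 402 TPM and 421 to 463 TPM in *P. vachelli* and *P. fulvidraco*, with a difference of -0.02 ± 0.08 (limma adjusted p = 0.895). Without hybrid 1 or hybrid 2 the count of calls was 4 and 3, without *P. vachelli* 3 it was 6, and it was 7 without *P. fulvidraco* 2 and without *P. fulvidraco* 1 and 2.

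Translation initiation and elongation factors had 17 of 47 measured members called below (36.2%, against 7.91% of all symbols) and 0 above, with a median of -0.32. The 1 stable call was Gspt1, the release factor eRF3a, which acts at stop codons. It is counted in the list but is neither an initiation nor an elongation factor. Gspt1 stood at 32.5, 30.9 and 36.2 TPM in hybrid libraries, 48.0 to 53.7 TPM in *P. vachelli* and 49.9 to 64.9 TPM in *P. fulvidraco*. It did not overlap with a parent and differed by -0.71 ± 0.10 (limma adjusted p = 0.00582). The list's count fell to 2 without hybrid 1 and to 2 without hybrid 2. It was 7, 10, 7 and 6 without *P. vachelli* 1, 2 or 3 or *P. fulvidraco* 2, 8 without *P. fulvidraco* 1 and 2, and 10 after median-ratio scaling. Related lists had smaller shares. Below the mid-parent were 5 of 35 aminoacyl-tRNA synthetases, which charge transfer RNAs, 7 of 51 spliceosome members and 7 of 75 mitochondrial ribosomal proteins, with 0 above in each and medians of -0.24, -0.23 and -0.19. These shares were 14.3%, 13.7% and 9.33% against 7.91% of all symbols, so the last is near the background. Without hybrid 2 these counts were 1, 0 and 1, and without hybrid 1 they were 1 in each. With each of the 9 libraries left out in turn they ranged from 1 to 6, 0 to 8 and 1 to 10. MRPL3, a protein of the large mitochondrial ribosomal subunit, was the stable call among these, at 14.2 to 16.2 TPM against 20.9 to 23.7 and 25.4 to 38.9 TPM (-0.83 ± 0.13, limma adjusted p = 0.00786). Cytosolic ribosomal proteins stayed near the mid-parent, with 2 of 77 called above, 1 below and a median of 0.08. Most lay slightly to 1 side, with 63 members higher and 14 lower than the mid-parent. With the log-scale mid-parent 12 were called above.

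Of 11 measured respiratory genes encoded in the mitochondrion, 9 were called below (81.8%, against 7.91% of all symbols) and 0 above, with a median of -0.46. The calls include MT-ND3, whose row was listed at 0 in every hybrid and *P. fulvidraco* library. Mitochondrial DNA is inherited from the mother, here *P. fulvidraco*, so the hybrid carries no paternal copy for a mid-parent to reflect, and the maternal level is given beside it. For mt-co2, which encodes subunit II of cytochrome c oxidase, levels were 12134 to 12532 TPM in hybrid libraries, 11215 to 12809 TPM in *P. fulvidraco* and 20079 to 22636 TPM in *P. vachelli*, so it overlapped the mother and lay below the father. Its difference from the mid-parent was -0.46 ± 0.07 (limma adjusted p = 0.00582). mt-atp6, an ATP synthase subunit, behaved alike at 3853 to 4031, 3883 to 4309 and 6385 to 6856 TPM. MT-ND2, MT-ND4 and MT-ND5, subunits of complex I, were also below the mother in every library. MT-ND5 stood at 278, 251 and 245 TPM in hybrid libraries, 324, 341 and 327 TPM in *P. fulvidraco* and 436, 397 and 451 TPM in *P. vachelli* (-0.55 ± 0.07, limma adjusted p = 0.0033). After median-ratio scaling 6 of the list were called below. Nuclear genes of oxidative phosphorylation had 1 of 68 above (1.47%) and 2 below (2.94%), against 2.42% and 7.91% of all symbols.

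Summing the rows reversed the result for 3 of these mitochondrial genes, which have a separate row for each species. With the row of highest mean level in place of the sum, mt-co2 differed from the mid-parent by 1.01, mt-atp6 by 0.96 and MT-ND2 by 0.59, each called above, and that row stood at 0.02 to 0.22 TPM on average in *P. vachelli*. Also called in opposite ways was itln, an intelectin lectin, at 0.87 ± 0.23 with the sum and -0.91 with its highest row. It was chosen after its values were seen, and its call was kept in 1 of 9 fits with a library left out. MT-ND3 has a single row that was listed at 0 in every hybrid and *P. fulvidraco* library and stood at 1564 to 1638 TPM in *P. vachelli*, so no fold is given. Over the 3806 symbols with several rows, the sum called 368 and the highest row 384, and 248 were called the same way by both. In 40 symbols with a row particular to each parent, the median absolute log2 difference between the parents was 0.75 with the sum and 1.76 with the highest row. Calls below were made for 8.72% of symbols with 1 row, 7.43% with 2 rows and 4.89% with 3 or more. Calls above went the other way, at 1.98%, 2.98% and 3.62%. The median level also rose, from 4.93 to 7.27 and 9.83 TPM, so rows and level cannot be told apart here.

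Plasma proteins went in both directions. The fibrinogen chains, which form the clot, were lower. FGB stood at 6977, 6944 and 7342 TPM in hybrid libraries, 8987 to 10354 TPM in *P. vachelli* and 9684 to 11954 TPM in *P. fulvidraco* (-0.54 ± 0.08, limma adjusted p = 0.00646). FGA and FGG differed by -0.47 ± 0.06 and -0.37 ± 0.06 (limma adjusted p = 0.00442 and 0.00935), and all 3 chains were under every parental library. SERPIND1, heparin cofactor 2, lay between the parents at 1338 to 1440 TPM against 2999 to 3366 and 756 to 784 TPM (-0.52 ± 0.06, limma adjusted p = 0.003). In the coagulation list 3 of 33 measured members were above (9.09%) and 7 below (21.2%), against 2.42% and 7.91% of all symbols. Its calls above numbered 0 without hybrid 1, hybrid 2 or *P. vachelli* 3, 1 without hybrid 3 or *P. vachelli* 1, and 5 without *P. fulvidraco* 1.

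Complement had 2 of 26 members above (7.69%) and 3 below (11.5%), against 2.42% and 7.91% of all symbols. C7, a pore component, followed the mother at 115 to 124 TPM in hybrid libraries, 97.0 to 146 TPM in *P. fulvidraco* and 312 to 449 TPM in *P. vachelli* (-1.10 ± 0.15, limma adjusted p = 0.00442). C4, which deposits on targets, lay between the parents with *P. fulvidraco* the higher, with 160 to 188 TPM, 216 to 225 TPM and 23.1 to 24.6 TPM in the same order (0.52 ± 0.08, limma adjusted p = 0.00613). Apolipoproteins and lipoprotein enzymes had 0 of 17 above and 4 below (23.5%). APOA4, a row described as apolipoprotein A-I-like, stood at 453, 419 and 645 TPM in hybrid libraries, 772 to 928 TPM in *P. vachelli* and 1352 to 2022 TPM in *P. fulvidraco*, below both without overlap (-1.35 ± 0.17, limma adjusted p = 0.00309). CETP, which moves cholesteryl esters between lipoproteins, lay between the parents at 112 to 122 TPM, against 230 to 294 and 87.4 to 102 TPM.

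Lists of lipid and sugar enzymes differed in their share of calls, against 2.42% above and 7.91% below over all symbols. Fatty acid and triglyceride synthesis had 2 of 30 above and 2 below (6.67% each). The elongase elovl6 stood at 9.56 to 11.1 TPM in hybrid libraries, 36.4 to 51.9 TPM in *P. vachelli* and 8.37 to 9.45 TPM in *P. fulvidraco*, and the lipase Pnpla2 at 8.02 to 12.6, 3.65 to 5.63 and 41.5 to 55.0 TPM. Both lay between the parental ranges, and the differences from the mid-parent were -1.21 ± 0.13 and -1.20 ± 0.19 (limma adjusted p = 0.00251 and 0.00768). Fatty acid oxidation had 0 of 41 above and 5 below (12.2%), and the tricarboxylic acid cycle 1 of 24 above (4.17%) and 4 below (16.7%). None of these calls was stable. Leaving out 1 library in turn gave 1 to 8 calls below for the first list and 0 to 4 for the second. Glycolysis, gluconeogenesis and glycogen had 2 of 40 above (5.0%) and 1 below (2.5%). The call below was ldhba, lactate dehydrogenase B, at 359, 353 and 333 TPM against 773 to 830 and 368 to 624 TPM (-0.91 ± 0.15, limma adjusted p = 0.00861), below every parental library.

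Cholesterol synthesis and uptake had 0 of 30 above and 1 below (3.33%, against 7.91% of all symbols), with a median of 0.13. The list's summed level was 901 to 1290 TPM in hybrid libraries, 1040 to 1300 TPM in *P. vachelli* and 631 to 1440 TPM in *P. fulvidraco*, so the groups overlapped. Without *P. fulvidraco* 1 and 2, which leaves 1 library there assumed to vary like the other groups, the list's median was 0.46. The median over all symbols was then -0.09. Without *P. fulvidraco* 1 alone, 6 of the 30 members were above, where 245 of all 10815 symbols were.

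Several symbols of metabolism were among the largest differences below the mid-parent. SLC13A5, a citrate importer, stood at 1.59 to 5.05 TPM in hybrid libraries, 2.31 to 4.75 TPM in *P. fulvidraco* and 31.7 to 43.1 TPM in *P. vachelli* (-2.44 ± 0.30, limma adjusted p = 0.003). SAT2, described as a diamine acetyltransferase, stood at 6.16 to 6.71 TPM, 3.30 to 7.70 TPM and 43.3 to 266 TPM in that order (-3.23 ± 0.54, limma adjusted p = 0.00963). UGT2A3, a glucuronosyltransferase row, stood at 23.3 to 32.2 TPM against 10.1 to 12.9 TPM in *P. vachelli* and 124 to 240 TPM in *P. fulvidraco* (-1.94 ± 0.24, limma adjusted p = 0.003). The hybrid overlapped the lower parent, *P. fulvidraco*, for the first pair and lay between the parents for UGT2A3.

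Interferon-response genes had 2 of 34 above and 2 below (5.88% each), against 2.42% and 7.91% of all symbols. IFI44, an interferon-induced protein summed over 6 rows, stood at 55.3, 42.7 and 37.9 TPM in hybrid libraries, between 193 to 317 TPM in *P. vachelli* and 20.2 to 27.5 TPM in *P. fulvidraco* (-1.67 ± 0.20, limma adjusted p = 0.003). Without hybrid 3 the list had 1 above and 6 below. Prg4, proteoglycan 4 or lubricin, and HPSE, heparanase, which cuts heparan sulfate, were under both parents in every library. Prg4 stood at 8.69 to 15.4 TPM against 28.9 to 84.5 and 42.3 to 76.1 TPM, and HPSE at 4.62 to 6.24 TPM against 13.6 to 18.1 and 11.7 to 16.6 TPM. They differed by -2.25 ± 0.33 and -1.28 ± 0.14 (limma adjusted p = 0.00571 and 0.00254).

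Selenium and thiol enzymes also held a dominant case. GPX4, which reduces lipid peroxides, stood at 675 to 695 TPM in hybrid libraries, 650 to 727 TPM in *P. vachelli* and 1139 to 1450 TPM in *P. fulvidraco* (-0.54 ± 0.08, limma adjusted p = 0.00735), so it overlapped the father. The antioxidant list had 1 of 34 above (2.94%) and 5 below (14.7%), against 2.42% and 7.91% of all symbols. Its calls below numbered 1 without hybrid 1, hybrid 2 or *P. vachelli* 3 and 2 without hybrid 3 or *P. fulvidraco* 2. The amino acid response list had 1 of 22 above (4.55%) and 5 below (22.7%). Its calls below numbered 2 without hybrid 1, 1 without hybrid 2, and 3 without *P. vachelli* 2, *P. vachelli* 3 or *P. fulvidraco* 2. In that list ASNS, asparagine synthetase, stood at 0.24 to 0.69 TPM in hybrid libraries against 0.85 to 1.65 and 2.40 to 3.69 TPM, low but separate (-1.14 ± 0.17, limma adjusted p = 0.00646).

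The vitellogenin symbol vtg1 was high in *P. fulvidraco* alone. It stood at 36981, 13546 and 35.2 TPM there, at 0.11, 0.66 and 0.14 TPM in hybrid libraries and at 0.64, 0.34 and 0.02 TPM in *P. vachelli*. The hybrid overlapped *P. vachelli*. It was called below the linear mid-parent (-12.66 ± 2.09, limma adjusted p = 0.00935). With the log-scale mid-parent, 0 of the 2 measured egg yolk and estrogen markers, vtg1 among them, were called. Without *P. fulvidraco* 1 and 2, which leaves 1 library there, the difference was -3.85 in place of -12.66.

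Growth hormone and insulin-like growth factor genes, the axis through which pituitary growth hormone drives growth via the liver, had 0 of 26 measured members above and 1 below, with a median of 0.05. The share below was 3.85%, against 7.91% of all symbols. The growth factor igf2 stood at 127, 36.0 and 75.5 TPM in hybrid libraries, 27.2, 27.2 and 70.4 TPM in *P. vachelli* and 63.8, 33.6 and 74.5 TPM in *P. fulvidraco* (0.68 ± 0.45, limma adjusted p = 0.372). CISH, a feedback inhibitor induced by growth hormone signalling, stood at 99.6, 14.5 and 74.4 TPM, 2.06, 2.38 and 26.8 TPM, and 30.9, 5.61 and 36.4 TPM in the same order (1.80 ± 0.92, limma adjusted p = 0.248). In both symbols hybrid 2 was the lowest hybrid library and overlapped the parents. The receptor GHR differed by -0.20 ± 0.11 (limma adjusted p = 0.292). The 1 call, AKT2, a kinase of the insulin pathway, was kept in 1 of 9 fits with a library left out, at -0.34 ± 0.09 (limma adjusted p = 0.0471).

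**Figure D5:**
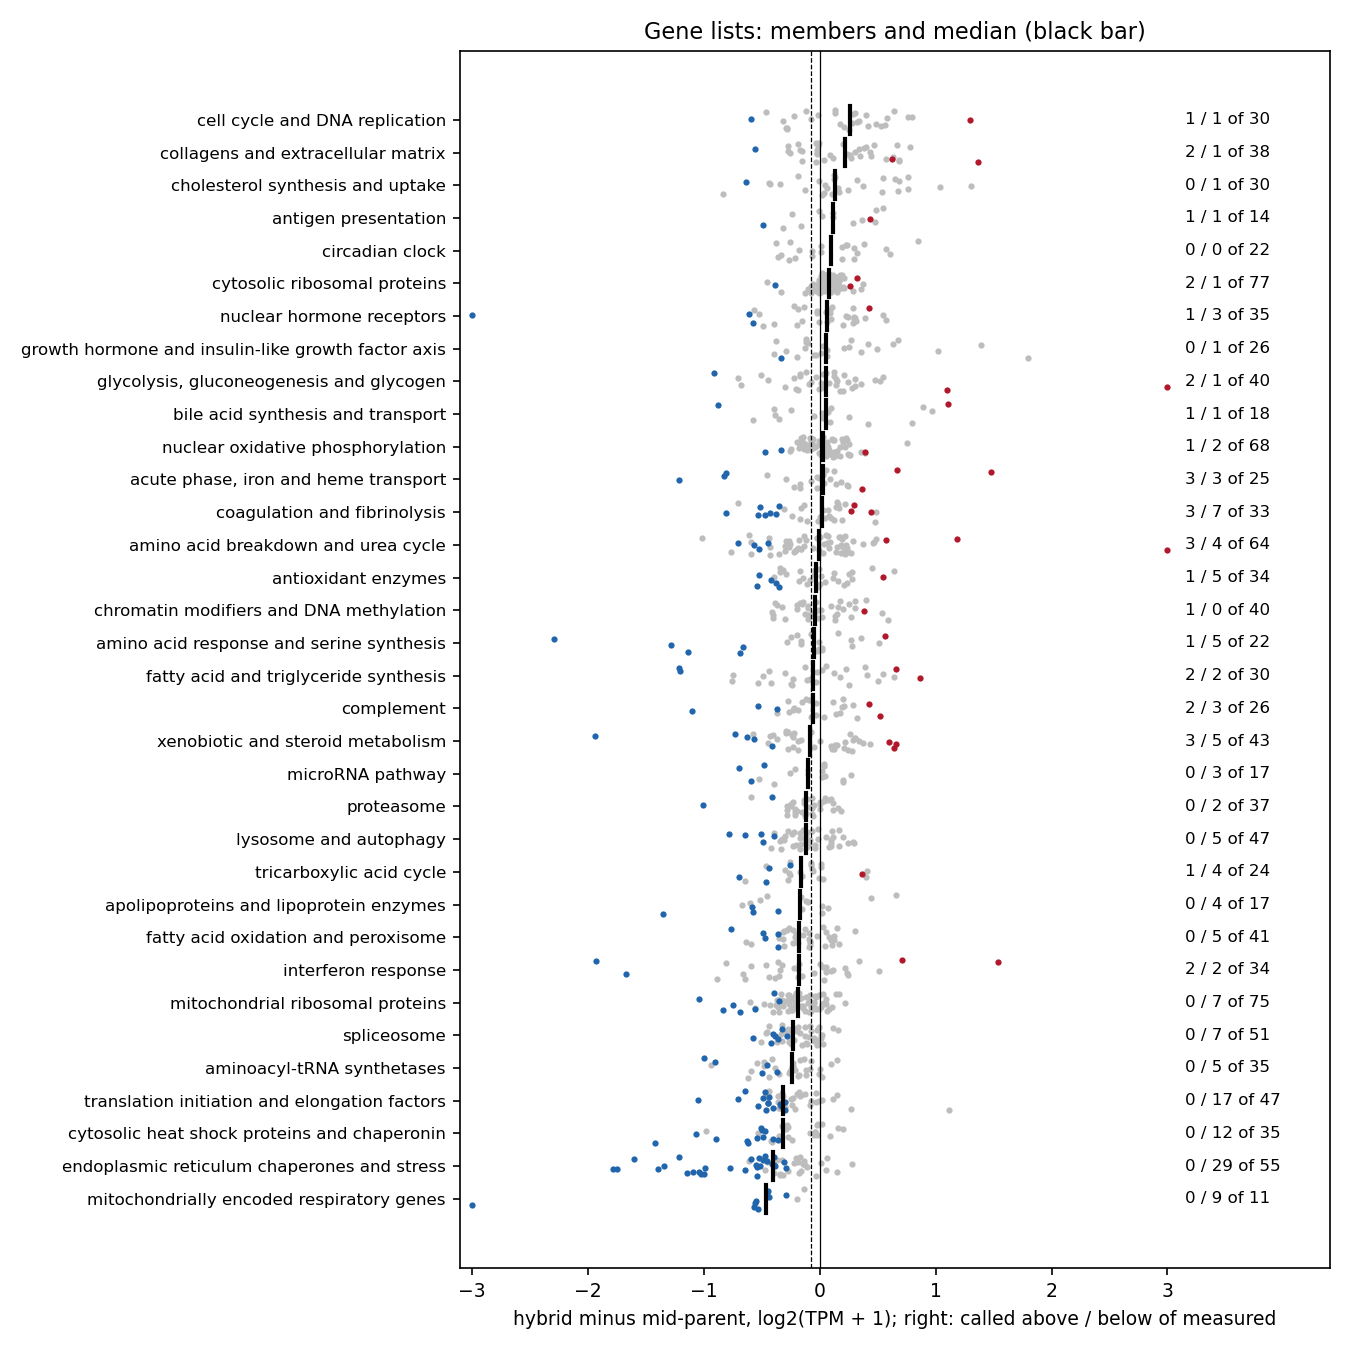
Members of the 34 function lists as points, with their hybrid minus mid-parent difference in log2(TPM + 1) on the x axis, red if called above, blue if called below and grey otherwise; black bars are list medians and numbers give calls above and below of those measured. The endoplasmic reticulum list (0 above, 29 below of 55) and the mitochondrially encoded list (0 and 9 of 11) stand at the bottom; values beyond 3 are drawn at 3.

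The other lists had at most 3 members called above and at most 5 called below, where 2.42% of all symbols were above and 7.91% below. Proteasome subunits had 0 of 37 above and 2 below, lysosome and autophagy genes 0 of 47 and 5, amino acid breakdown 3 of 64 and 4, xenobiotic and steroid metabolism 3 of 43 and 5, and acute phase and iron genes 3 of 25 and 3. Bile acid genes had 1 of 18 above and 1 below, nuclear hormone receptors 1 of 35 and 3, antigen presentation 1 of 14 and 1, the microRNA pathway 0 of 17 and 3, cell cycle and replication 1 of 30 and 1, and chromatin modifiers 1 of 40 and 0. The circadian clock had 0 of 22 in either direction. Collagens and matrix genes had 2 of 38 above and 1 below, and 7 above after median-ratio scaling or 6 without hybrid 1. Against 7.91% of all symbols, the share called below in these lists ran from 0.0% to 17.6%, the latter in the microRNA pathway, where 1 call was stable. Leaving out 1 library in turn gave 1 to 4 calls below for that pathway, 2 to 7 for the lysosome list, 2 to 6 for xenobiotic metabolism, 0 to 4 for acute phase and iron genes and 0 to 5 for nuclear hormone receptors.

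Markers of other cell types were followed in the same libraries. For comparison, 2.42% of all symbols were called above and 7.91% below. The median difference of all symbols was -0.07, so more of them lay lower than the mid-parent than higher. Several of these lists are short, so 1 call makes up a large share of them. Pancreatic acinar genes, which a fish liver can hold as scattered exocrine tissue, were higher than the mid-parent in 9 of 9 measured members, with a median of 0.89, but CPB1 alone was called (1.08 ± 0.29, limma adjusted p = 0.0496), a call kept in 3 of 9 fits with a library left out. Their summed level was 5910 to 7850 TPM in hybrid libraries, 1530 to 3200 TPM in *P. vachelli* and 2540 to 6470 TPM in *P. fulvidraco*, which overlapped the hybrid. Macrophage markers were higher in 10 of 10 members with 0 called and a median of 0.28, at a summed 578 to 771 TPM against 148 to 162 and 882 to 1050 TPM. CD163, a hemoglobin scavenger receptor, made up most of the sum at 501, 5.30 and 837 TPM on average in the hybrid, *P. vachelli* and *P. fulvidraco*. Erythrocyte and endothelial markers had 0 of 6 and 0 of 12 called. The stellate and fibroblast list had 1 of 12 above, the cholangiocyte list 1 of 7 above, the T and NK cell list 1 of 4 above, and the intestine list 1 of 3 below, which was APOA4. The B cell, neutrophil, kidney and adipocyte lists had 0 called of 4, 3, 3 and 4, and the 1 measured islet gene was not called. The part of these cell markers in the results was not tested.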

How the data were processed

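Liver mRNA of 9 libraries, 3 per group, had been sequenced as paired ends. Reads were handled with cutadapt and FastQC, per the submitters' processing notes; the aligner, the quantifier and the reference were not given in the sources used here. The deposited table gives TPM per transcript row, per the file headers, with a gene name and a description; all 9 value columns were used. Each library's TPM sums to 1000000, so depth is unknown and no counting interval can be given.

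From these values, rows were summed per symbol without regard to case, and symbols reaching 1 TPM in 3 or more of 9 libraries were kept. Of 10815 symbols, 2687 joined rows of more than 1 description, and 6874 occur in the RefSeq gene table of *T. vachellii*, used for names only. limma 3.58.1 in R 4.3.3 was fitted with an intensity trend to log2(TPM + 1) over all 9 libraries and 3 groups (6 residual degrees of freedom). The effect was the log2 difference of the hybrid mean and the linear mid-parent, each plus 1. Its error came from the moderated variance by the delta method, each parent weighted by its share of the summed parental level. Tests were two-sided with Benjamini-Hochberg adjustment over 10815 symbols. They had been tried on simulated data with independent errors of equal spread in all groups. Such data cannot show how the tests behave where the spread differs between groups, as for vtg1. The files held TPM where the plan also allowed for counts, so no count test was run.

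The symbols and gene lists were chosen with earlier results of these data known. Named symbols were, in each direction, the 10 of largest difference at or above the median level of 5.96 TPM, the 8 most abundant and the 6 farthest outside the parental range, all stable as defined above; up to 4 members per list with the smallest p; and any list member to give its value. Some symbols that this rule names are not reported here. Ribosome biogenesis and chemokine lists were added after values were seen. Lists are described by counts and medians, with no set test. Alternatives covered scaling, pseudocount, filter, trend, replicate block, mid-parent and error scale, a minimum difference, the row taken for a symbol, and libraries left out. Promoter motifs were not analysed here.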

Additional observations from a re-analysis of the deposited data

How the results depend on the processing

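No named symbol with a call changed direction under another setting, except itln (-0.91), mt-atp6 (0.96), mt-co2 (1.01) and MT-ND2 (0.59) with the highest row of a symbol. The counts of symbols above the mid-parent (262), below it (856), above both parents (105) and below both (217) kept within 1.5 times their value under quantile, median-ratio, named-row and vitellogenin-free scaling, both other pseudocounts, no filter and a 5 TPM filter, no trend, back-transformed means, log-scale errors, the highest row and parents at 1 TPM or more. With the log-scale mid-parent 499 were above. A minimum log2 difference of 1 left 78, 123, 38 and 15. A fit of only the 7009 symbols with 1 row gave 168 above the mid-parent and 68 above both parents. The main fit called 139 of these 7009 above the mid-parent. Without *P. fulvidraco* 1 and 2, the 4 counts were 143, 414, 43 and 80. With each library left out in turn they ranged from 101 to 284, 247 to 907, 66 to 109 and 96 to 271; fewer libraries also mean fewer degrees of freedom, and other causes were not tested.

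Replicate numbers did not pair the libraries. Deviations of same-numbered libraries from their group means correlated between -0.0682 and 0.0553. With the replicate number as a block, 179 symbols were above the mid-parent and 567 below, 91 above both parents and 178 below both.

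Without counts, the precision of low symbols cannot be stated. Over all symbols, 209 were above and 764 below with a pseudocount of 0.1, and 290 and 864 with 5. Rows with the same symbol can belong to different genes, and the linear mid-parent leans on the higher parent when the parents differ.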

Other observations

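A further large group of calls below the mid-parent concerned the building of ribosomes in the nucleolus. The list of these genes was written after their values had been seen, so its count is a description with no test. Of 108 measured members 56 were called below (51.9%, against 7.91% of all symbols) and 0 above, 103 were lower than the mid-parent, and the median difference was -0.57. In 34 members every hybrid library was under every parental one (5.4% of all symbols), 23 were below both parents by test (2.01% of all symbols), and 15 calls were stable. The summed level was 1280 to 1550 TPM in hybrid libraries, 1860 to 2240 TPM in *P. vachelli* and 2170 to 2580 TPM in *P. fulvidraco*, with no overlap of the hybrid. nop10, part of the particle that pseudouridylates ribosomal RNA, stood at 65.4, 50.6 and 66.4 TPM in hybrid libraries, 125 to 142 TPM in *P. vachelli* and 105 to 145 TPM in *P. fulvidraco* (-1.06 ± 0.12, limma adjusted p = 0.00287). RPF2, which brings the 5S particle into the large subunit, stood at 6.56 to 6.59 TPM against 10.1 to 12.7 and 12 to 15.8 TPM (-0.90 ± 0.12, limma adjusted p = 0.00364). Imp4 and Rrs1, assembly factors of the small and the large subunit, differed by -1.32 ± 0.21 and -1.05 ± 0.16, and the helicase Ddx21 by -0.58 ± 0.09. NVL lay between the parents, at 17.1 to 20.0 TPM against 8.40 to 11.8 TPM in *P. fulvidraco* and 64.5 to 124 TPM in *P. vachelli*. Without hybrid 1 the list had 23 calls below, without hybrid 2 it had 16, and without *P. fulvidraco* 1 and 2 it had 15. After median-ratio scaling it had 54 below and 1 above.

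Some stable calls above both parents fell outside the lists and were chosen after their values were seen. IDO2, a tryptophan-degrading dioxygenase, stood at 34.7 to 48.8 TPM in hybrid libraries, 4.56 to 8.85 TPM in *P. vachelli* and 21.3 to 25.3 TPM in *P. fulvidraco*. SORD, sorbitol dehydrogenase, stood at 165 to 210 TPM against 90.7 to 111 and 106 to 126 TPM, and Taldo1, transaldolase of the pentose phosphate pathway, at 104 to 123 TPM against 68.0 to 73.1 and 81.9 to 83.6 TPM. ppp1r3b, which targets a phosphatase to glycogen in liver, stood at 120 to 127 TPM against 45.0 to 50.3 and 112 to 114 TPM, above every parental library by a small margin over *P. fulvidraco*. Below both parents were METTL7A, described as methyltransferase-like, at 63.2 to 72.8 TPM against 219 to 313 and 97.9 to 128 TPM, and SRD5A2, steroid 5-alpha-reductase, at 139 to 175 TPM against 387 to 482 and 196 to 291 TPM.

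The chemokine list, also written after values were seen, had 3 of 13 members above (23.1%) and 2 below (15.4%). Over all symbols these shares were 2.42% and 7.91%. Beside CCL4 and Ccl24, Cxcl3, a row described as interleukin-8 variant 3, stood at 3.64 to 7.49 TPM in hybrid libraries against 0.51 to 0.73 and 0 to 1.41 TPM.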
